A study of Arabidopsis thaliana with 18 samples.

Results

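The PLETHORA and AINTEGUMENTA-like genes of Arabidopsis (*Arabidopsis thaliana*) were examined for BRIP1 and BRIP2 binding by ChIP-seq, chromatin immunoprecipitation followed by sequencing. The 8 genes were taken by locus: *PLT1* (AT3G20840), *PLT2* (AT1G51190), *BBM* (AT5G17430), *AIL6* or *PLT3* (AT5G10510), *AIL5* or *PLT5* (AT5G57390), *AIL7* or *PLT7* (AT5G65510), *ANT* (AT4G37750) and *AIL1* (AT1G72570). They are 8 of the 27444 protein-coding genes on the nuclear chromosomes. A peak was given to a gene when its summit, the position of highest signal, lay between 3000 bp upstream of the transcription start site (TSS) and 1000 bp past the 3′ end. By this rule 16 of the 23145 nuclear peaks belonged to the family.

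BRIP1 and BRIP2 are homologous subunits of the SWI/SNF chromatin remodelling complexes that assemble on the ATPase BRAHMA (BRM). The 4 libraries used were anti-GFP precipitates of 14-day-old seedlings carrying BRIP1-GFP in *brm-1* or BRIP2-GFP in *brm-1*, with 2 biological replicates each. *brm-1* is a mutant of *BRM*, and both groups carried it. Neither the promoter of the transgenes nor the number of lines is known from the labels. Of the 18 samples of the series 14 were not analysed here, among them the same fusions in plants with BRM, and an effect of losing BRM cannot be read from the values. For BRIP1-GFP replicate 2 the antibody field is at odds with the title, since it names no antibody. The same holds for the BRIP2-GFP input, whose field names GFP. Seedlings free of GFP have no titled precipitate, so binding and fusion-independent signal cannot be told apart.

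The 8 genes encode transcription factors with a pair of AP2 DNA-binding domains. *PLT1* and *PLT2* are auxin-responsive master regulators of the root stem cell niche, and *BBM* can induce somatic embryos when it is overexpressed. *AIL6*, *AIL5* and *AIL7* act together in lateral root formation and in the placement of organs at the shoot apex, and *ANT* promotes cell proliferation and organ size. The role of *AIL1* is less well described. Family members are expressed mainly in meristems and young primordia, which are a small share of the cells of a whole seedling, and a peak list of bulk tissue does not tell weak binding in many cells from strong binding in few.

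The BRIP1 libraries held 3637 and 5343 nuclear peaks and the BRIP2 libraries 7877 and 6288. Peak height is given as the fold of the summit over its local control, a ratio from the authors' peak caller. The BRIP1 lists had median folds of 2.59 and 2.44, against 2.56 and 2.64 for BRIP2. The pileup, the number of fragments over a summit, was recovered from the peak values. At background the lowest pileup called was 54 and 66 fragments for BRIP1 against 49 and 41 for BRIP2, so a site below these heights was not detectable at this depth. The background itself was 31.5 and 41.2 fragments for BRIP1 against 29.7 and 23.2 for BRIP2. Pileups therefore do not compare 1 library with another. The local control stood at this background for 81% and 84.9% of the BRIP1 peaks, and for 73.6% and 79.9% of the BRIP2 peaks. It did so at every in-window peak of the family except that of *AIL5* in BRIP2 replicate 1 (30.2 against 29.7). At those peaks the fold sets the pileup against 1 library-wide value.

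Peaks were called at 5 of the 8 genes. *ANT* and *AIL5* had a peak in all 4 libraries, *AIL6* and *AIL1* in 3 each, and *AIL7* in 1. *PLT1*, *PLT2* and *BBM* had none. Thus 2 of the 8 genes were called in all 4 libraries, against 14.9% of all protein-coding genes. Both BRIP1 libraries called *AIL6*, *AIL5* and *ANT*, which is 3 of 8, against 15.8% of all genes. Both BRIP2 libraries called *AIL5*, *ANT* and *AIL1*, again 3 of 8, against 26.7%. At least 1 library called 5 of 8, against 39.6%. The list was not tested, and with 8 genes nothing particular to the family is read from these counts.

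The counts above were built from the calls of the single libraries, which are therefore no separate support for them. BRIP1 replicate 1 called 3 of the 8 genes, against 16.8% of all genes, and BRIP1 replicate 2 called 4, against 24.1%. BRIP2 replicate 1 called 5, against 36.1%, and BRIP2 replicate 2 called 3, against 29.0%. BRIP2 replicate 1, the longest list, was the only library with a peak at each of these 5 genes, and the *AIL7* peak and the upstream *AIL6* peak were found in it alone. Without BRIP2 replicate 2, the BRIP2 count therefore stood at 5 genes.

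**Figure D1:**
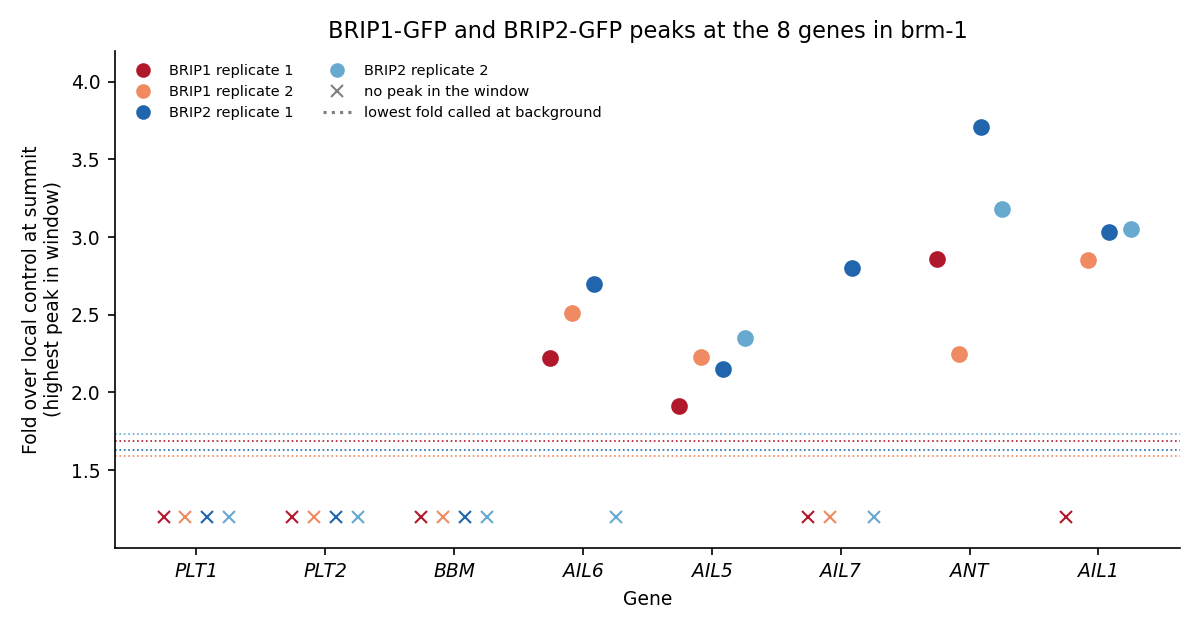
Fold over the local control (vertical axis, linear, no unit) of the highest peak in the window of each gene, 1 point per library, with BRIP1 in reds and BRIP2 in blues. Crosses mark libraries with no peak, and dotted lines the lowest fold called at each library's background (1.69 and 1.59 for BRIP1, 1.63 and 1.73 for BRIP2); *ANT* and *AIL5* have points in all 4 libraries and *PLT1*, *PLT2* and *BBM* have none.

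*PLT1*, *PLT2* and *BBM*, the members known for the root stem cell niche and for embryo identity, had no summit in their windows in any of the 4 libraries. Nor did a peak lie just beyond them. The nearest summit outside the window was 4502 to 33908 bp away from it for *PLT1*, 19957 to 22192 bp for *PLT2* and 11318 to 22201 bp for *BBM* over the 4 libraries. The upstream intergenic gap was 14001 bp at *PLT1*, 11604 bp at *PLT2* and 3974 bp at *BBM*, so the upstream part of each window held no other protein-coding gene. Toward *PLT1*, BRIP1 replicate 2 and BRIP2 replicate 1 had their nearest summits 7502 and 7607 bp upstream of the TSS, closest to *UCNL*, with folds of 1.92 and 1.99.

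*ANT* (chromosome 4, 17739514 to 17742407, plus strand, TAIR10) had the highest mean fold of the 2 members called in every library. Its site, chr4:17736399-17736979, is intergenic, in a gap of 11604 bp to the next protein-coding gene upstream. The fold was 2.86 and 2.25 in the BRIP1 libraries, against 3.71 and 3.18 in the BRIP2 libraries. Both BRIP2 folds were above both BRIP1 folds. The library medians over the 2982 regions shared by every library were ordered alike (log2 fold 1.42 and 1.51 for BRIP1, 1.73 and 1.67 for BRIP2). The share of regions with this order was not computed, and nothing particular to *ANT* is read from it. The summits lay 2909 and 2842 bp upstream of the TSS for BRIP1 and 2857 and 2871 bp for BRIP2, a spread of 67 bp. Pileups were 92 (95% Poisson interval 74.2 to 113) and 94 (76 to 115) fragments for BRIP1, and 113 (93.1 to 136) and 76 (59.9 to 95.1) for BRIP2. The intervals cover counting error only. The site stands 2842 to 2909 bp from the TSS, just inside the 3000 bp limit, and a window of 1000 bp upstream loses it.

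In rank, the *ANT* peak was ordinary. Within their own lists, 65.2% and 35.2% of the BRIP1 peaks and 86.4% and 73.3% of the BRIP2 peaks had a lower fold. BRIP1 averaged 2.56 ± 0.43 and BRIP2 3.45 ± 0.38 (SD, n = 2 per protein). Of the 4094 genes with a summit in all 4 libraries, 50.5% had a lower mean over the libraries than *ANT*. Over the 4 libraries together, its folds lay nearest to those of AT3G20260 and AT3G20270, which share 1 set of peaks with each other (distance 0.13 over the 4 log2 folds), and of *DOF2.4* (AT2G37590, distance 0.15), a gene for a DOF zinc-finger protein.

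A second site lay further upstream of *ANT*, outside the window, and was followed up after its values had been seen. Its summits stood 4239 and 4170 bp upstream of the TSS for BRIP1 and 4159 and 4203 bp for BRIP2, which is 1159 to 1239 bp beyond the window, and *ANT* was the gene with the nearest TSS. The fold was 2.99 and 3.30 for BRIP1 against 3.42 and 4.21 for BRIP2, with means of 3.15 ± 0.22 and 3.81 ± 0.56 (SD, n = 2 each). Pileups were 96 (77.8 to 117) and 138 (116 to 163) fragments for BRIP1 and 109 (89.5 to 131) and 101 (82.3 to 123) for BRIP2. The outer site had the higher fold of the 2 *ANT* sites in BRIP1 replicates 1 and 2 and in BRIP2 replicate 2, and the inner site in BRIP2 replicate 1. Both sites were called in every library.

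The sequence of 300 bp centred on the highest summit of the inner *ANT* site, chr4:17736507-17736806 on the plus strand, is shown because it carries the strongest in-window peak of the family. It is from the RefSeq genome TAIR10.1 and holds none of the 7 motifs searched.

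ANT inner site: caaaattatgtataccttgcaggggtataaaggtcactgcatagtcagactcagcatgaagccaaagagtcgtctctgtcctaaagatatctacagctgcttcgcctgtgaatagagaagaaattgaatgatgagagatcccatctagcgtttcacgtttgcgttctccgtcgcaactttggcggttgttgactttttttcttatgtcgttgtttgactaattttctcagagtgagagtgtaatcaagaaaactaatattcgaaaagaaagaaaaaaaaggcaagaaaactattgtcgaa

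*AIL5* (chromosome 5, 23252989 to 23256703, minus strand) had a low peak at its promoter in all 4 libraries. The fold was 1.91 and 2.23 for BRIP1 against 2.15 and 2.35 for BRIP2, and the 2 ranges overlapped. Means were 2.07 ± 0.23 and 2.25 ± 0.15 (SD, n = 2 each). In all, 2.64% of the 4094 genes called in all libraries had a mean fold below that of *AIL5* (2.16). Within the single lists, 5.11% and 33.5% of the BRIP1 peaks and 21.2% and 28.5% of the BRIP2 peaks had a lower fold. Pileups were 61 (46.7 to 78.4) and 93 (75.1 to 114) fragments for BRIP1, and 66 (51 to 84) and 56 (42.3 to 72.7) for BRIP2.

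The *AIL5* peaks did not share 1 summit. BRIP1 replicate 2 and the BRIP2 replicates peaked within a narrow stretch 429, 445 and 447 bp upstream of the TSS, while BRIP1 replicate 1 peaked 989 bp upstream, and the summits spread over 560 bp. Together the 4 peaks covered chr5:23256940-23257758, an intergenic stretch. The *AIL5* call in BRIP1 replicate 1 had a −log10 q of 4.08, and *AIL5* left the genes called in all libraries when only peaks with a −log10 q of 10 or more were kept.

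*AIL1* (chromosome 1, 27331381 to 27333698, plus strand) had a sharp peak close to its start in 3 libraries. The fold was 2.85 in BRIP1 replicate 2, with no peak in BRIP1 replicate 1, against 3.03 and 3.05 in the BRIP2 libraries. Summits lay 300 bp upstream for BRIP1 and 239 and 277 bp for BRIP2, a spread of 61 bp. Pileups were 119 (98.6 to 142) fragments in BRIP1 replicate 2 against 92 (74.2 to 113) and 73 (57.2 to 91.8) for BRIP2. In these lists, 69.4%, 70.4% and 69.0% of the peaks had a lower fold, so the site was above the median wherever it was called. Its absence from BRIP1 replicate 1 leaves a single BRIP1 value, and no BRIP1 to BRIP2 comparison was made. The upstream gap is only 1349 bp, and the same peaks also fall in the window of the neighbour AT1G72560, although *AIL1* has the nearer TSS.

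The *AIL5* and *AIL1* sites were the 2 member sites that held a GAGA repeat, and their sequences are shown for it. Capitals mark GAGAGAGA on either strand, and in *AIL1* also TGTCTC. Both run 5′ to 3′ on the strand of the gene, at chr5:23257001-23257300 (minus strand) and chr1:27330954-27331253 (plus strand).

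AIL5 site: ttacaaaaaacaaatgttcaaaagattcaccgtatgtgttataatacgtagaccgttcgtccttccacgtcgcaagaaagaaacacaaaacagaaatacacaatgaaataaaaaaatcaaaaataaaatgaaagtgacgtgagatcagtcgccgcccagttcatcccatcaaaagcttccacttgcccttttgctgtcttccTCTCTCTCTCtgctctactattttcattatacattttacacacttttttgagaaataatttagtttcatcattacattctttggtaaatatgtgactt

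AIL1 site: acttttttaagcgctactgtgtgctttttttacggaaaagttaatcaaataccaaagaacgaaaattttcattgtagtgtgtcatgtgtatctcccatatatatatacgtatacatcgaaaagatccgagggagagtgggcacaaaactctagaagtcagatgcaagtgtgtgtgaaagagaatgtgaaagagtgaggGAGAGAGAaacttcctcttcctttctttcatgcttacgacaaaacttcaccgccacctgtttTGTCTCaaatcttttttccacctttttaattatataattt

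The 7 motifs were searched on both strands in these 300 bp windows at the 6 member sites and at the 2982 regions with a peak of all 4 libraries. Of the member sites, those of *ANT* and *AIL5* had a peak in all 4 libraries, and those of *AIL6*, *AIL7* and *AIL1* did not. The member sites and the regions were thus chosen by unlike rules. GAGAGAGA, the GAGA repeat, was present at 2 member sites and at 12.5% of the regions, and the 2 matches at *AIL5* overlap each other. TGTCTC, the core of an auxin response element, was present at the *AIL1* site alone and at 22.8% of the regions, and the variant TGTCGG at no member site and 9.36%. The G-box CACGTG was at no member site, while 24.7% of the regions held it. The telo-box AAACCCTA (2.31% of regions), the site II element TGGGCC (11.5%) and the E2F word TTTCCCGC (0.637%) were also at no member site. The GC content of the member sites ran from 33.9 to 38.5%, against a median of 35.5% for the regions (quartiles 32.6 and 38.5%).

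*AIL6* (chromosome 5, 3315401 to 3320323, plus strand) had its reproducible peak inside the gene. In intron 3 or 4, depending on the transcript, the fold was 2.22 and 2.51 for BRIP1 against 2.25 for BRIP2 replicate 1, and BRIP2 replicate 2 had no peak. The summits lay 2672 and 2707 bp downstream of the TSS for BRIP1 and 2691 bp for BRIP2, within 35 bp of each other. Pileups were 71 (55.5 to 89.6) and 105 (85.9 to 127) fragments for BRIP1 and 68 (52.8 to 86.2) for BRIP2. It was the only member site called in both BRIP1 libraries and in 1 BRIP2 library. BRIP2 replicate 1 also had a peak 1547 bp upstream of the TSS, with a fold of 2.70 and a pileup of 82 (65.2 to 102) fragments, in no other library.

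*AIL7* (chromosome 5, 26185593 to 26189571, plus strand) had a single peak, in BRIP2 replicate 1. Its fold was 2.80, with a pileup of 85 (67.9 to 105) fragments and a −log10 q of 14.3, and 61.5% of that library's peaks had a lower fold. It was not a marginal call in that list, yet BRIP2 replicate 2 and the BRIP1 libraries had none there. The summit lay 2228 bp downstream of the TSS, again in an intron.

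**Figure D2:**
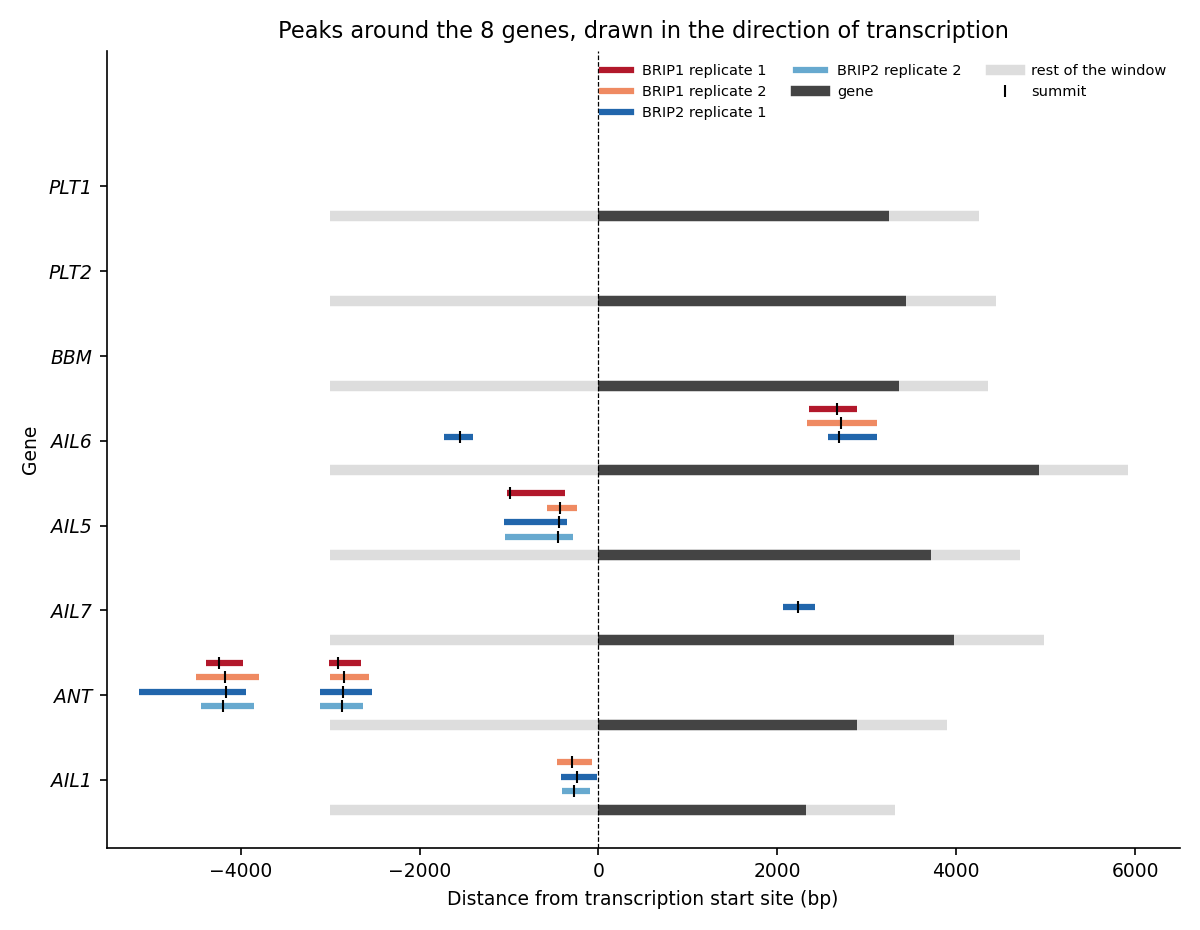
Peaks (coloured bars) and summits (ticks) around each gene against the distance from its TSS in bp, with BRIP1 libraries above BRIP2 libraries, genes in dark grey and the rest of the window in light grey. The *AIL7* peak and 3 of the 4 *AIL6* peaks lie within the gene, the other *AIL6* peak 1547 bp upstream of the TSS, *AIL5* and *AIL1* peaks at the promoter, and *ANT* has 1 site just inside the window and 1 beyond it.

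The *AIL6* and *AIL7* peaks fell at the corresponding place of the 2 genes. In both, the intron follows an exon of 83 bp, and it precedes an exon of 9 bp in 5 of the 7 *AIL6* transcripts and 4 of the 4 *AIL7* transcripts of the RefSeq annotation. The intron is 1291 bp long in those *AIL6* transcripts and 1141 bp in *AIL7*. The highest summit stood 587 bp into it in *AIL6* and 592 bp in *AIL7*. The sites are thus at matching depth in introns bounded by exons of the same length.

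The intron sequences under the peaks also resemble each other. A blastn search of each 300 bp member site against the genome (E value limit 0.01, added after the data had been seen) matched the *AIL6* intron site at 2 stretches, both in the *AIL7* intron, and the *AIL7* site at the same 2 stretches of *AIL6*. No other place in the genome matched either site. In the first stretch 63 of 69 aligned positions were identical (91.3%; chr5:3318083-3318150 and chr5:26187823-26187890), and in the second 55 of 68 (80.9%). The summits of BRIP2 replicate 1 and BRIP1 replicate 2 in *AIL6* lay inside the first stretch, that of BRIP1 replicate 1 lay 10 bp outside it, and the *AIL7* summit 2 bp outside it. The longest identical run of the 2 windows was 28 bp. Whether any reads fit both introns, and how such reads were assigned, is not known from the labels.

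Both windows are printed on the plus strand with the matching stretches in capitals, at chr5:3317958-3318257 and chr5:26187671-26187970, so that the shared blocks can be read against each other.

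AIL6 intron site: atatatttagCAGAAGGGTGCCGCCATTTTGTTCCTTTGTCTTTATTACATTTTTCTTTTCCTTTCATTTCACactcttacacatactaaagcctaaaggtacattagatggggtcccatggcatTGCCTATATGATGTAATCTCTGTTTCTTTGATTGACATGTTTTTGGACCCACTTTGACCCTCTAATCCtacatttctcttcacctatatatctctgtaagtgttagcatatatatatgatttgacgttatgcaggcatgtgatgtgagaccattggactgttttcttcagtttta

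AIL7 intron site: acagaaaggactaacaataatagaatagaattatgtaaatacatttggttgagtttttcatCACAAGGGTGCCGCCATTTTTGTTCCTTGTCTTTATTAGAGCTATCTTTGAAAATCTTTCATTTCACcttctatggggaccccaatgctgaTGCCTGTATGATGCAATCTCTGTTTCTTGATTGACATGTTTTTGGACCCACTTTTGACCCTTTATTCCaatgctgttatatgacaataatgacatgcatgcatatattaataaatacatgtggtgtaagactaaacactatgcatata

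**Figure D3:**
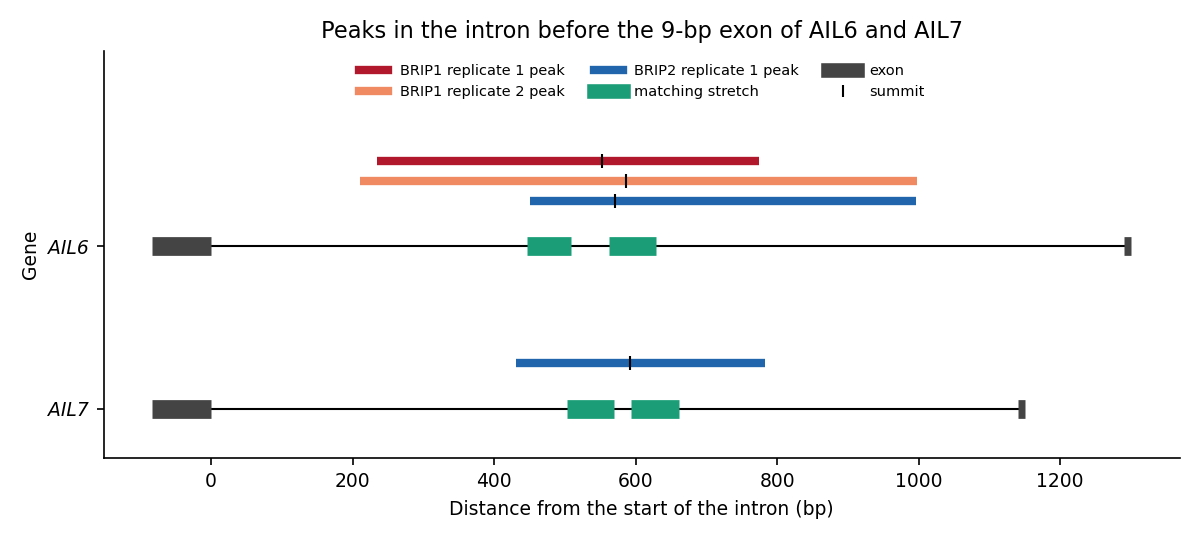
The intron of *AIL6* (above) and *AIL7* (below) against the distance from the start of the intron in bp, with flanking exons as dark boxes, the stretches that match between the genes as green boxes, and peaks with their summits as coloured bars with ticks. BRIP1 peaks are drawn above BRIP2 peaks, and the highest summits stand 587 bp into the *AIL6* intron and 592 bp into the *AIL7* intron.

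The upstream *AIL6* site had a match near *AIL7* as well. Of 72 aligned positions 55 were identical (76.4%) to a stretch 742 to 809 bp upstream of the *AIL7* TSS, where no library had a peak and where the TSS of the neighbour AT5G65500 is nearer. The *AIL5* site matched 3 other places, with 78.7 to 82.4% identity over 45 to 61 aligned positions. All 3 matches lay within chr5:23257165-23257224, a stretch rich in A on the strand of the gene, and the search did not mask low-complexity sequence. Of these, the match upstream of *TIC* (AT3G22380), a circadian clock regulator, lay under peaks of all 4 libraries. The *ANT* and *AIL1* sites matched no other place at this limit.

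BRIP1 and BRIP2 were compared by limma on the log2 fold of the 2982 regions with a peak in all 4 libraries, each library centred on its median, with Benjamini-Hochberg adjustment over all regions. The fold was higher for BRIP1 at 24 regions (0.805%) and lower for BRIP1 at 9 (0.302%), with an adjusted p under 0.05. The member sites that could be tested, at *ANT* and *AIL5*, were among neither. At *ANT* the log2 difference of BRIP1 over BRIP2 was -0.20 (SE 0.14, 95% interval -0.50 to 0.10, adjusted p = 0.494). Before centring, both BRIP1 folds there were below both BRIP2 folds, as the library medians also were. At *AIL5* the log2 difference was 0.11 (SE 0.13, interval -0.15 to 0.38, adjusted p = 0.671), and at the outer *ANT* site -0.04 (SE 0.13, interval -0.32 to 0.25, adjusted p = 0.911). The *AIL5* value does not compare the proteins at 1 summit, since the summits of that region spread over 560 bp. The intervals leave room for ratios of 0.706 to 1.07 at *ANT* and 0.90 to 1.30 at *AIL5*.

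The centring mattered at *ANT*. Over the shared regions the BRIP1 libraries had a lower median log2 fold than the BRIP2 libraries (BRIP1 minus BRIP2, -0.24). On the folds as deposited, without centring, 721 regions were called, 11 higher and 710 lower for BRIP1, against 24 and 9 with centring. The *ANT* difference was then -0.44 with an adjusted p of 0.0181 in limma, and the *AIL5* difference turned to -0.12 with an adjusted p of 0.533. The lower BRIP1 fold at *ANT* was therefore called only together with the general difference between the libraries. Without BRIP1 replicate 2, the centred *ANT* difference was 0.017, and without BRIP2 replicate 2 the outer *ANT* site stood at 0.14.

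**Figure D4:**
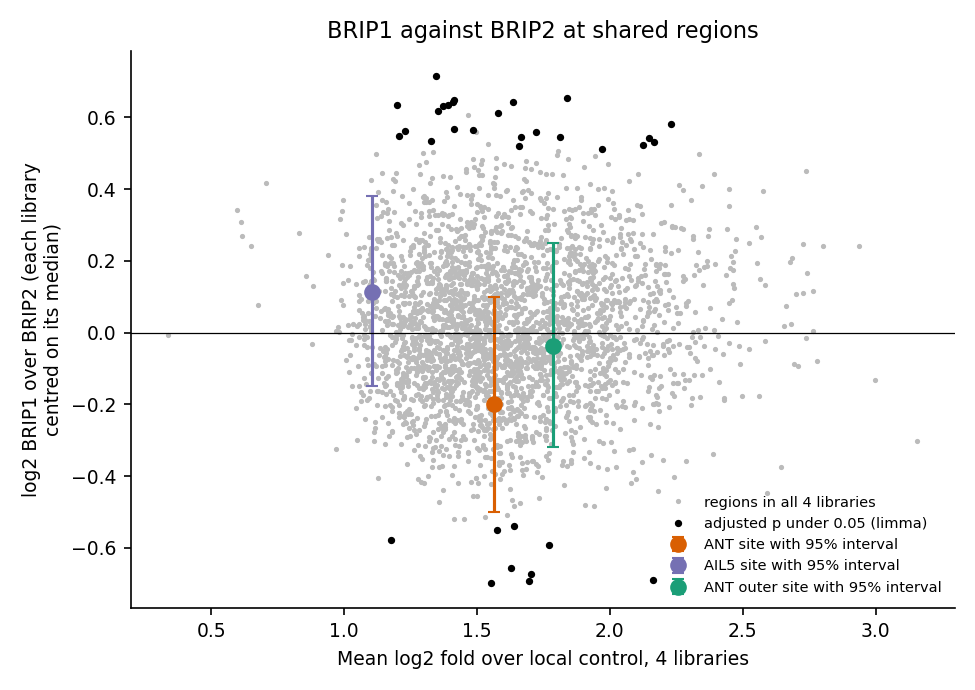
Log2 ratio of BRIP1 over BRIP2 (vertical axis, each library centred on its median) against the mean log2 fold over the local control (horizontal axis) for the 2982 regions called in all 4 libraries. The *ANT* site (-0.20), the *AIL5* site (0.11) and the outer *ANT* site (-0.04) are drawn with 95% intervals, all of which cross 0, and black points mark the 33 regions with an adjusted p under 0.05.

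By their medians the members are long genes with long upstream gaps. A longer gene has a longer window, and the part of length in the calls was not tested. The median length of the members was 3400 bp, against 2078 bp for all protein-coding genes, and their median gap to the next gene upstream 6286 bp, against 1112 bp. *AIL1* (2318 bp long, gap 1349 bp) and the gap of *AIL7* (1482 bp) were nearer to the medians of all genes.

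Genes known to act with the family, or related to it, ranged from high peaks to none. Of 63 such genes in 6 lists, 20 (31.7%) had a summit in all 4 libraries by the same window, against 14.9% of all protein-coding genes, and 21 (33.3%) had none, against 60.4%. Both BRIP1 libraries called 21 (33.3%, against 15.8%) and both BRIP2 libraries 30 (47.6%, against 26.7%). The lists were chosen with earlier results known and were not tested, and nothing particular to them is read from these shares. Among the 9 other AP2-type genes, 4 were called in all 4 libraries (44.4%, against 14.9% of all genes). The highest was the floral regulator *AP2*, with folds of 5.57 and 6.38 for BRIP1 against 6.87 and 6.93 for BRIP2. *SMZ*, a floral repressor, had means of 3.07 ± 0.08 and 3.80 ± 0.011, and *TOE3*, of the *AP2* clade, 3.13 ± 0.23 and 3.37 ± 0.019 (BRIP1, then BRIP2, SD, n = 2 each). *AP2* was above every PLETHORA or AINTEGUMENTA-like gene in each of the 4 libraries.

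Of the 15 genes for auxin inputs, 8 were called in all 4 libraries (53.3%, against 14.9% of all genes) and 5 in none (33.3%, against 60.4%). The corepressor gene *TPL* had folds of 3.32 and 3.53 for BRIP1 against 5.57 and 5.16 for BRIP2. *YUC4*, an auxin biosynthesis gene, had means of 3.71 ± 0.018 for BRIP1 and 3.50 ± 0.29 for BRIP2, and the efflux carrier gene *PIN3* 3.24 ± 0.49 and 3.57 ± 0.027 (SD, n = 2 each). The auxin response factor *MP* (*ARF5*), which acts upstream of several members, had a summit in its window in all 4 libraries. The fold was 1.79 and 1.76 for BRIP1 against 2.02 and 2.43 for BRIP2. The *MP* summits lay at separate places upstream of the TSS, and no single place had a summit from every library. These *MP* folds therefore do not compare the proteins at 1 summit.

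The RGF peptide pathway, which controls PLT1 and PLT2 protein in the root, had 1 of 8 genes called in all 4 libraries and 4 in none. These shares of 12.5% and 50% were near the 14.9% and 60.4% of all genes. The called gene was that of the receptor RGFR1, with a BRIP1 mean of 2.29 ± 0.11 and a BRIP2 mean of 2.94 ± 0.07 (SD, n = 2 each), and none of the 3 peptide genes *RGF1*, *RGF2* and *RGF3* had a summit. In the root stem cell niche, 3 of 12 genes were called in all 4 libraries (25%, against 14.9% of all genes) and 3 in none (25%, against 60.4%). *JKD* had folds of 4.59 and 5.38 for BRIP1 against 4.24 and 3.88 for BRIP2, and *SCR* 4.28 and 4.67 against 4.28 and 3.95. These 2 regulators of root radial patterning thus lay above every in-window peak of the members in each library, and *RBR1*, the retinoblastoma-related gene, had means of 2.69 ± 0.15 for BRIP1 and 3.80 ± 0.12 for BRIP2.

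Of the 11 embryo and shoot meristem genes, 2 were called in all 4 libraries and 6 in none. Their shares of 18.2% and 54.5% were near the 14.9% and 60.4% of all genes. *LEC1*, a regulator of embryo identity, had means of 3.43 ± 0.15 for BRIP1 and 3.84 ± 0.56 for BRIP2, and the MADS-box gene *AGL15* 2.69 ± 0.25 and 2.97 ± 0.18 (SD, n = 2 each). Of the 8 organ growth and lateral root genes, 2 were called in all 4 libraries (25%, against 14.9% of all genes) and 2 in none (25%, against 60.4%). The 2 called genes were *ETT*, an auxin response factor gene, with means of 2.89 ± 0.19 for BRIP1 and 3.48 ± 0.81 for BRIP2, and the D-type cyclin gene *CYCD3;1*, with 2.58 ± 0.51 and 3.37 ± 0.21. The differences between proteins at these genes were not tested one by one.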

How the data were processed

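Peak lists of 4 ChIP-seq libraries from *brm-1* seedlings were used, BRIP1-GFP and BRIP2-GFP with 2 replicates each, grouped and numbered by the sample titles. The authors called peaks library by library. Bowtie, deepTools, MACS2 2.1.1 and TAIR10 are named in the processing notes of the submitters; the control library of a list was not given in the sources used here. Each deposited peak has a position and summit, a fold over the local control (a ratio), −log10 values of its p and q, and an integer score, which was left unused. Read numbers are unknown. Because MACS2 writes the fold as pileup plus 1 over control plus 1 and takes p from a Poisson distribution, pileups were solved for, and 99.8 to 99.9% were whole within 0.05.

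Summits were assigned to genes of the RefSeq TAIR10.1 annotation. Peaks overlapping by 1 bp or more formed regions, fitted with limma 3.58.1 in R 4.3.3. Sequences came from the RefSeq genome and were compared with blastn 2.17.0. Alternatives were a −log10 q of 10 or more, a fold of 3 or more, equal list lengths (the best 3637 by q), other gene windows, 50% reciprocal overlap, summits within 150 bp, no centring, the replicate number as a block, and each library left out. The functions were tested on simulated data. The members, gene lists and motifs were chosen with earlier results of these data known. All 8 members were named, with up to 3 genes per list that had a summit in all 4 libraries, by highest mean fold, and the 3 genes with folds nearest to the highest member. *MP*, the RGF peptide genes and the genes nearest to summits outside the windows were named after their values were seen, as were the pileups, the sequence matches and the outer *ANT* site.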

Additional observations from a re-analysis of the deposited data

How the results depend on the processing

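Of the alternatives, the stricter peak limits moved the members' counts. With a −log10 q of 10 or more, 1 member (*ANT*) was called in all 4 libraries and 1 in both BRIP1 libraries, and with a fold of 3 or more none was called in either, against 2 and 3. With equal list lengths, and with the window of 1000 bp upstream to the 3′ end, 1 member was called in all 4 libraries, *ANT* in the first case and *AIL5* in the second. Leaving out 1 library gave 2 to 3 members for all libraries, 3 to 4 for BRIP1 and 3 to 5 for BRIP2, the 5 without BRIP2 replicate 2. The nearest-TSS rule changed no count. Shares of all genes were not computed for the stricter limits, equal list lengths or other windows, nor with 1 library left out of the 4. A change in a member count therefore cannot be told from a change over all genes.

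The number of regions that differed between BRIP1 and BRIP2 was not stable. Against 33, it was 19 with a −log10 q of 10 or more, 85 with 50% reciprocal overlap, 721 without centring, and 12 to 99 with 1 library left out. Whether replicate numbers pair the samples is not known from the labels. Over the 2982 regions the replicate differences of the 2 proteins had a correlation of 0.0083. With the replicate block, limma called 0 regions (489 at an unadjusted p under 0.05, against 526 without the block), and the member sites kept their side of the threshold (adjusted p = 0.436 at *ANT* and 0.625 at *AIL5*). Without centring, the *ANT* difference of -0.44 passed the threshold and *AIL5* turned to -0.12. With 1 library left out, the log2 difference ran from -0.42 to 0.017 at *ANT*, from 0.013 to 0.21 at *AIL5* and from -0.22 to 0.14 at the outer *ANT* site, with no adjusted p under 0.05. *AIL5* gave no value with the stricter q, with reciprocal overlap or with summits within 150 bp, nor the outer *ANT* site with reciprocal overlap. The planned identities between the 8 proteins were not run, because no protein table was used here.

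With 2 libraries per protein, a difference at 1 site had an SE of 0.13 to 0.14 on the log2 scale. Sites below about 41 to 66 fragments could not be called, so a missing peak does not show that binding was absent.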
